A study of Mus musculus with 24 samples.

Results

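The nucleolar ribosome biogenesis factors described here are 48 mouse genes whose proteins act in the building of ribosomal subunits, which starts in the nucleolus. They were picked by name from the known factors of this pathway, and all 48 were found among the 21909 gene symbols of the RNAseq tables. The cells compared are mouse embryonic stem cells (ESCs) and, derived from them, neural progenitors (NPCs). Ribosome production starts in the nucleolus, where RNA polymerase I transcribes rRNA genes into a long precursor. Small nucleolar ribonucleoproteins (snoRNPs) modify and fold this precursor, the small-subunit (SSU) processome releases the pre-40S particle from it, and a separate chain of factors matures the pre-60S particle before export to the cytoplasm. Cells that grow and divide fast, ESCs among them, are known for high ribosome production and prominent nucleoli.

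The study asked which parts of the genome lie at the nucleolus in ESCs and after their differentiation, and measured RNA in both cell types. The ESCs were E14 mouse cells grown without feeder cells in 2i medium with leukemia inhibitory factor (LIF, 1000 U/ml), the GSK3 inhibitor CHIR99021 (3 µM) and the MEK inhibitor PD0325901 (1 µM), with no other treatment. The NPCs were made in vitro from E14 cells as embryoid bodies in suspension, in medium with fetal calf serum, over 8 days, of which the last 4 had 2 µM retinoic acid. Each group had 3 samples of this cell line, and polyA RNA was sequenced. Whether they came from separate cultures is not stated, so p-values measure only the spread between these samples, which may be technical.

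Expression was given as RPKM, reads scaled by transcript length and by the reads of the library, which is a relative scale: RNA per cell was not measured. In these bulk samples fewer cells of a type and less RNA per cell cannot be told apart. The cell types stand in separate tables and no batch is named, so a batch that goes with the cell type cannot be told apart from it. The number of reads per sample is not in the tables. The steps between low values gave, relative to ESC replicate 1, a depth of 0.990 in ESC replicate 2 and 0.904 in ESC replicate 3, and of 0.885, 0.801 and 0.949 in NPC replicates 1, 2 and 3.

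ESC replicate 3 stood apart from the other ESC samples. Over the 7835 genes tested, its log2 values correlated with those of ESC replicates 1 and 2 at r = 0.963 and 0.966, while these correlated at 0.999 with each other and the NPC samples at 0.996 to 0.999 among themselves (correlations across genes, which are not independent replicates). Genes of cytoplasmic ribosomal proteins took 32.3% of its summed RPKM, against 20.3% and 21.1% in ESC replicates 1 and 2 and 16.8%, 17.1% and 17.5% in the NPC samples. Mitochondrial genes took 6.39%, against 15.5% and 14.3% in the other ESC samples and 13.2%, 12.8% and 11.9% in the NPC samples. Among the 48 factors, its RPKM ranged from 0.398 times the mean of ESC replicates 1 and 2 for Utp20 to 2.33 times for Nhp2. It was over 1.5 times that mean for 8 factors and below it by the same factor for 7. This ratio was higher for genes with a short annotated exon length, taken over the merged exons of a gene. With ratio and length both on log2 scales, Pearson r was -0.625 over the 48 factors. It was -0.633 over the 7754 tested genes with an annotated length. Spearman rho with exon length was -0.612 over the 48 factors. These values are a description over genes of the same libraries. For the 6 factors with under 2000 bp of exons the median log2 ratio was 0.89, for the 23 with 2000 to 4000 bp 0.13, for the 12 with 4000 to 6000 bp -0.07, and for the 7 longer ones -0.04. Results are therefore given with and without this sample where it bears on them. The cause was not tested.

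**Figure D1:**
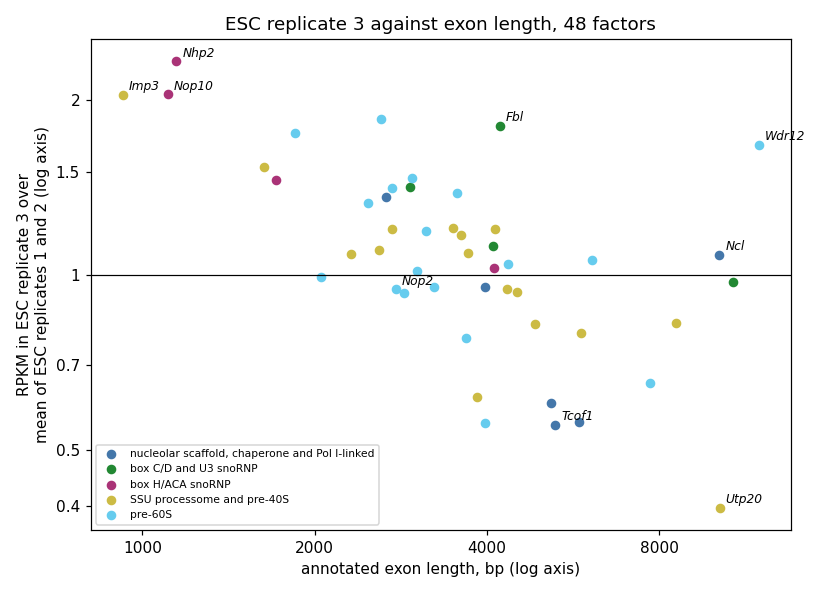
RPKM of each of the 48 factors in ESC replicate 3 divided by its mean in ESC replicates 1 and 2 (vertical, log axis) against annotated exon length in bp (horizontal, log axis), each point being a gene colored by its role. Short genes such as Nhp2 (2.33) and Imp3 (2.04) lie above 1, and Utp20 (0.398) lies lowest.

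The factors were lower in NPCs almost throughout. Of the 48, all of which passed the filter of at least 1 RPKM in at least 3 of the 6 samples, 46 were called lower in NPCs by limma at an adjusted p under 0.05, against 2606 of 7835 genes tested (33.3%). No factor was called higher by limma at an adjusted p under 0.05, against 2894 of all genes (36.9%), and 0 of 48 were higher at an unadjusted p under 0.05. In 47 factors every ESC sample was above every NPC sample, which held for 38.4% of all genes. Without ESC replicate 3 all 48 were called lower, against 44.0% of all genes. Among genes with a mean of at least 5 RPKM, where lower calls were more frequent (45.2% of 2664), 33 of 34 factors were called lower. Rrp12 was the only factor with an NPC sample under 1 RPKM (0.901), so the filter hardly chose among the factors.

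The median difference of the factors, NPC minus ESC on the log2(RPKM + 1) scale, was -1.02, with a range from -2.25 for Nhp2 to -0.03 for Gnl2, while the median over all genes tested was 0.02. Among genes with a mean of at least 5 RPKM the median was -1.06 for the 34 factors tested and -0.35 for all 2664 genes. As a ratio of mean RPKM, ESC over NPC, the factors ranged from 1.04 to 5.51 with a median of 2.22, and 37 of them were over 2 and 12 over 3. Without ESC replicate 3 the median ratio was 2.25, the range was 1.12 to 4.83 and 30 factors were over 2. The log2 difference of all genes tested also varied with exon length. Its median was -0.51 under 2000 bp, -0.15 at 2000 to 4000 bp, 0.11 at 4000 to 6000 bp and 0.29 for longer genes. In the same order the medians of the factors were -1.01, -1.09, -1.20 and -0.83. The part of length in the differences was not tested.

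Together the factors summed to 1531, 1459 and 1850 RPKM in ESC replicates 1 to 3 and to 678, 721 and 705 RPKM in NPC replicates 1 to 3. All ESC sums were more than 2 times the NPC sums, with ESC replicate 3 highest. The sum of RPKM over all genes also differed between the samples (104016, 105859 and 139988 in ESCs, 85295, 86521 and 85958 in NPCs). As a share of it, the factors took 1.47%, 1.38% and 1.32% in ESCs and 0.795%, 0.833% and 0.820% in NPCs, or 1.70 times more in ESCs (1.39% ± 0.0759 against 0.816% ± 0.0192, SD, n = 3 each). When all samples were scaled to equal sums, the median of all genes moved to 0.33, and calls over all genes were 1612 lower and 3658 higher in place of 2606 and 2894. On that scale 37 factors were called lower and 0 higher, their median was -0.63, and relative to the median of all genes it was -0.96, against -1.04 without this scaling. With quantile normalization the factors stood at -0.83 relative to the median of all genes, and at -0.71 among genes with a mean of at least 5 RPKM.

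**Figure D2:**
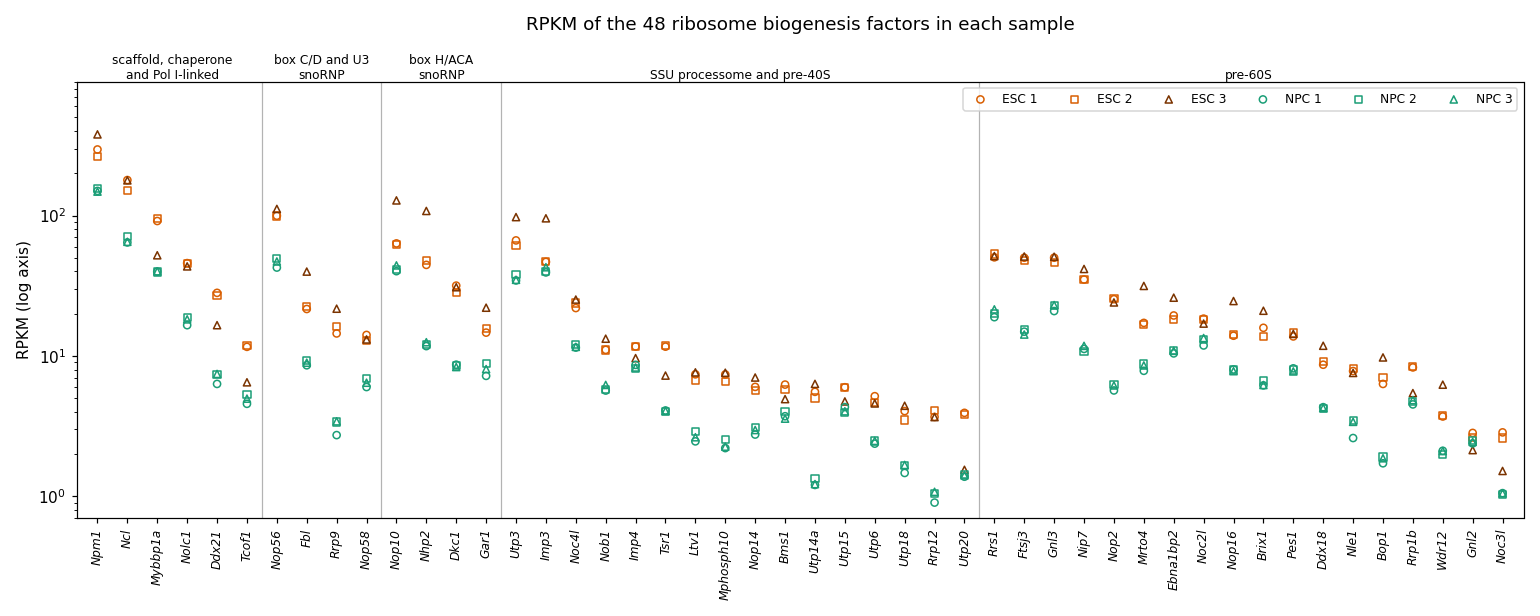
RPKM (vertical, log axis) of the 48 factors in each of the 6 samples, with ESC samples in orange and brown and NPC samples in green, sorted by role and by ESC mean. Every ESC sample lies above every NPC sample in 47 factors, and the groups overlap for Gnl2.

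The order of the factors was much the same in both cell types (Spearman rho = 0.946 between their ESC and NPC means, a description over 48 genes). Npm1 was the most abundant in all 6 samples. At the lower end stood Gnl2 at 2.83 RPKM in ESC replicate 1, Noc3l at 2.60 and 1.51 RPKM in ESC replicates 2 and 3 and at 1.03 and 1.05 RPKM in NPC replicates 2 and 3, and Rrp12 at 0.901 RPKM in NPC replicate 1.

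The first group holds 6 scaffold, chaperone and Pol I-linked proteins, all called lower, with a median log2 difference of -1.15 (-1.25 without ESC replicate 3). Ncl encodes nucleolin, an RNA-binding protein of the nucleolus that acts in rRNA transcription and processing. It stood at 179, 150.3 and 178 RPKM in ESC replicates 1 to 3 and at 64.3, 70.9 and 65.0 RPKM in NPC replicates 1 to 3. The lowest ESC sample was 2.12 times the highest NPC sample, and the groups did not overlap. Ncl fell by 1.33 on the log2 scale (SE 0.13, limma adjusted p = 0.000149). Its difference was -0.90 with equal sums and -0.77 with quantile normalization. Npm1 encodes nucleophosmin, a histone and ribosome chaperone that forms much of the outer nucleolus. It stood at 296, 262 and 379 RPKM in ESCs and at 149.8, 156 and 148 RPKM in NPCs. The highest sample was ESC replicate 3, and the NPC samples lay close together below all ESC samples. Npm1 fell by 1.02 (SE 0.18, limma adjusted p = 0.00218), or by 0.88 without ESC replicate 3, and with quantile normalization it did not pass (-0.30, adjusted p = 0.0633).

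Ddx21, a helicase that links Pol I transcription with rRNA processing, had the largest fall of these 6. Its RPKM was 28.1, 26.8 and 16.6 in ESCs and 6.32, 7.41 and 7.44 in NPCs. Here ESC replicate 3 was the lowest ESC sample, and was still 2.22 times the highest NPC sample. Ddx21 differed by -1.59 on the log2 scale (SE 0.21, limma adjusted p = 0.000562) and by -1.82 without ESC replicate 3. The other 3 were Nolc1, a chaperone of snoRNPs, with -1.29, Mybbp1a with -0.93, and Tcof1, the treacle protein of Pol I sites, with -0.84. Mybbp1a and Tcof1 were at 0.558 and 0.552 times the other ESC samples in ESC replicate 3, and their calls were lost with equal sums.

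Box C/D snoRNPs guide ribose methylation of rRNA, and the U3 snoRNP of the same class starts the cutting of the precursor. All 4 factors of this group were called lower, with a median of -1.32 (-1.15 without ESC replicate 3). Nop56, a core protein of the particle, was the most abundant, with 99.7, 99.3 and 112 RPKM in ESCs and 42.6, 49.2 and 47.1 RPKM in NPCs. The ESC samples lay together at more than 2 times the highest NPC sample. Its log2 difference was -1.14 (SE 0.12, limma adjusted p = 0.000192), -0.72 with equal sums and -0.59 with quantile normalization. Fbl encodes fibrillarin, the methyltransferase of the particle, and stood at 21.6, 22.6 and 39.9 RPKM in ESCs and at 8.57, 9.26 and 8.95 RPKM in NPCs. In ESC replicate 3 it was 1.81 times the mean of the other ESC samples, which were themselves above all NPC samples. Fbl fell by 1.49 (SE 0.23, limma adjusted p = 0.00137), and by 1.22 without ESC replicate 3.

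Rrp9, which binds the U3 snoRNA, had the largest fall of this group. It was at 14.5, 16.2 and 21.7 RPKM in ESCs and at 2.73, 3.38 and 3.42 RPKM in NPCs. Its lowest ESC sample was 4.23 times its highest NPC sample, the widest gap among the 48 factors. Rrp9 changed by -2.13 on the log2 scale (SE 0.16, limma adjusted p = 3.85e-05), and by -1.97 without ESC replicate 3. Nop58, the partner of Nop56 in the particle, fell by 0.95. In RPKM the core proteins kept the order Nop56, Fbl, Nop58 in both cell types.

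Box H/ACA snoRNPs guide the conversion of uridine to pseudouridine, and the same 4 proteins are part of telomerase. All 4 were called lower, with a median of -1.36 (-1.27 without ESC replicate 3). Nhp2 stood at 44.5, 48.1 and 107.9 RPKM in ESCs and at 11.7, 12.1 and 12.5 RPKM in NPCs. ESC replicate 3 was more than 2 times the other ESC samples, and all ESC samples were far above the NPC samples. The log2 difference of -2.25 (SE 0.33, limma adjusted p = 0.00102) was the largest among the 48 factors, and was -1.85 (adjusted p = 6.66e-08) without ESC replicate 3. The first rank rests on that sample: without it Rrp9 (-1.97) and Nop2 (-1.91) fell more than Nhp2, and Rrp9 also did so with quantile normalization (-2.04 against -1.87) and with a pseudocount of 0.1 (-2.41 against -2.33). Dkc1 encodes dyskerin, the pseudouridine synthase of the particle, and stood at 31.7, 28.4 and 30.9 RPKM in ESCs and at 8.66, 8.57 and 8.33 RPKM in NPCs. Here ESC replicate 3 lay between the other ESC samples, and the groups were far apart. Dkc1 fell by 1.72 (SE 0.09, limma adjusted p = 5.32e-06).

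Nop10, the smallest of the 4 proteins, was the most abundant of them by RPKM. It stood at 63.3, 62.1 and 128 RPKM in ESCs and at 40.2, 41.5 and 44.1 RPKM in NPCs. ESC replicate 3 was the high sample again, and the lowest ESC sample was 1.41 times the highest NPC sample. The log2 difference was -0.91 (SE 0.29, limma adjusted p = 0.0281), and -0.57 (adjusted p = 3.64e-05) without ESC replicate 3. The limma call was lost with quantile normalization (-0.37, adjusted p = 0.0597) and when any NPC sample was left out (adjusted p 0.0685 to 0.0894). Gar1, the remaining member of the particle, fell by 1.01. By mean RPKM the order was Nop10, Nhp2, Dkc1, Gar1 in both cell types, but in NPCs the samples of Gar1 (7.21, 8.88 and 8.06 RPKM) spanned those of Dkc1, so this pair did not differ there beyond the spread.

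The SSU processome is the large particle that folds and cuts the precursor to free the pre-40S subunit. Of the 16 SSU processome and pre-40S factors listed here 15 were called lower, with a median of -0.91 (-0.84 without ESC replicate 3, with 16 called). Utp3, a component of the processome, was the most abundant by mean RPKM over all 6 samples and in ESCs, while Imp3 was above it in every NPC sample. It was at 66.5, 60.8 and 97.5 RPKM in ESCs and at 34.5, 38.0 and 34.9 RPKM in NPCs. Samples of the groups did not overlap, with ESC replicate 3 highest. Utp3 fell by 1.02 (SE 0.19, limma adjusted p = 0.00334), and by 0.81 without ESC replicate 3. Its difference was -0.60 with equal sums and -0.49 with quantile normalization.

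Utp14a, which activates a helicase of the processome, had the largest fall of these 16. It was at 5.55, 5.01 and 6.32 RPKM in ESCs and at 1.20, 1.34 and 1.22 RPKM in NPCs. All ESC samples were over 3 times the NPC samples. Utp14a changed by -1.55 on the log2 scale (SE 0.09, limma adjusted p = 1.16e-05). Next over all 6 samples was Mphosph10, a protein that joins the U3 particle together with Imp3 and Imp4. It was at 7.38, 6.55 and 7.59 RPKM in ESCs and at 2.20, 2.54 and 2.26 RPKM in NPCs. The 3 ESC samples lay close together and lay apart from the NPC samples. Mphosph10 fell by 1.29 (SE 0.09, limma adjusted p = 2.17e-05). Its rank is not firm: without ESC replicate 3 Tsr1 (-1.33) and Rrp12 (-1.28) fell more than Mphosph10 (-1.26), and with a pseudocount of 0.1 Rrp12 did (-1.82 against -1.58).

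Its partners Imp3 and Imp4 moved less. Imp3 stood at 46.8, 47.0 and 95.6 RPKM in ESCs and at 39.3, 39.98 and 42.8 RPKM in NPCs. ESC replicate 3 was 2.04 times the mean of the others, which lay just above the NPC samples. Imp3 was not called (-0.54, SE 0.29, limma adjusted p = 0.134), was called without ESC replicate 3 (-0.20, adjusted p = 0.00854) and was at 0.00 with quantile normalization. Imp4 fell by 0.36 (SE 0.10, limma adjusted p = 0.0186), but its difference was 0.03 with equal sums, and its call was also lost without any of ESC replicates 1 and 2 and NPC replicates 2 and 3 (adjusted p 0.0588 to 0.0767).

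The remaining SSU factors spanned -1.26 for Rrp12 to -0.35 for Utp15. Ltv1 and Tsr1, late pre-40S factors, fell by 1.16 and 1.12, Noc4l by 0.95, Utp18 by 0.94, and Nob1, the nuclease that makes the final cut of 18S rRNA, by 0.89. Nop14, Utp6 and Bms1, a GTPase, fell by 0.88, 0.75 and 0.47. The limma calls of Bms1 and Utp15 were lost with equal sums (-0.13, adjusted p = 0.529 and -0.01, adjusted p = 0.974), and that of Utp15 also without any of ESC replicates 1 and 2 and NPC replicates 2 and 3 (adjusted p 0.0610 to 0.0794). Utp20, a very large protein of the processome, stood at 3.93, 3.82 and 1.54 RPKM in ESCs and at 1.38, 1.43 and 1.41 RPKM in NPCs. ESC replicate 3 came within 1.08 times of the highest NPC sample, while the other ESC samples were more than 2 times above it. Its log2 difference was -0.71 (SE 0.25, limma adjusted p = 0.0443) and -1.02 (adjusted p = 1.46e-07) without ESC replicate 3, and the call was lost when any of the other 5 samples was left out (adjusted p 0.101 to 0.123).

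Of the 18 pre-60S factors 17 were called lower, with a median of -1.06 (-0.92 without ESC replicate 3, with 18 called). Rrs1, which helps to place the 5S particle in the large subunit, was the most abundant by mean RPKM over all 6 samples and in ESCs, while Gnl3 was above it in every NPC sample. It was at 50.4, 53.3 and 51.5 RPKM in ESCs and at 18.9, 20.2 and 21.5 RPKM in NPCs. The samples of each group lay close together, and the groups were far apart. Rrs1 fell by 1.32 (SE 0.10, limma adjusted p = 3.62e-05). Nop2, a methyltransferase of the large rRNA and a known marker of proliferation, had the largest fall of this group. It was at 25.4, 25.5 and 24.0 RPKM in ESCs and at 5.67, 6.29 and 6.16 RPKM in NPCs. The lowest ESC sample was 3.83 times the highest NPC sample. The log2 difference was -1.88 (SE 0.09, limma adjusted p = 2.88e-06).

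Ftsj3, another methyltransferase of rRNA, stood at 50.1, 47.9 and 51.1 RPKM in ESCs and 14.9, 15.4 and 14.2 RPKM in NPCs. Again the ESC samples lay together, more than 3 times above all NPC samples. It fell by 1.68 (SE 0.09, limma adjusted p = 7.47e-06), the next largest after Nop2. That rank is not firm. Bop1 fell more than Ftsj3 with a pseudocount of 0.1 (-1.99 against -1.74), with a pseudocount of 0.5 and without ESC replicate 1. Nip7 fell more than Ftsj3 without NPC replicate 3. Pes1, Bop1 and Wdr12 form the PeBoW complex, which is needed to process the rRNA of the large subunit. They fell by 0.77, 1.60 and 0.83, and their mean RPKM was 14.2, 7.69 and 4.56 in ESCs and 7.95, 1.83 and 2.06 in NPCs. Bop1 was thus above Wdr12 in the ESC means and below it in the NPC means. In single samples, Bop1 was at 6.31, 6.99 and 9.75 RPKM in ESCs, where Wdr12 was at 3.70, 3.75 and 6.24, and at 1.72, 1.91 and 1.86 RPKM in NPCs, where Wdr12 was at 2.11, 1.97 and 2.0995. Each sample had Bop1 above Wdr12 in ESCs and below it in NPCs. Whether the falls of the 3 genes differ from each other was not tested.

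Gnl2 was the only factor of the 48 whose groups overlapped and, besides Imp3, the only one not called. Like Gnl3, Imp3 and Utp20, it is given in full as a choice made after the values were seen. It encodes a GTPase of the pre-60S particle, and stood at 2.83, 2.64 and 2.13 RPKM in ESCs and at 2.38, 2.50 and 2.44 RPKM in NPCs. ESC replicate 3 was the lowest of the 6 samples and the others of its group the highest, so the groups overlapped. The log2 difference was -0.03 (SE 0.09, limma adjusted p = 0.76). Without ESC replicate 3 it was called by limma (-0.12, adjusted p = 0.0263), and the difference was 0.03 without ESC replicate 1 and 0.26 with equal sums. Its relative Gnl3, or nucleostemin, a GTPase known from stem cells and tumors, was at 50.1, 46.0 and 50.9 RPKM in ESCs and at 20.9, 22.8 and 23.0 RPKM in NPCs. These groups did not overlap. Gnl3 fell by 1.10 (SE 0.10, limma adjusted p = 0.0001). Its difference was -0.69 with equal sums and -0.72 with quantile normalization.

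The other pre-60S factors that were called lay between -1.64 for Nip7 and -0.45 for Noc2l. Brix1, Mrto4, Nle1, Ddx18, Nop16 and Ebna1bp2 fell by 1.26, 1.22, 1.09, 1.04, 1.01 and 0.90, and Noc3l and Rrp1b by 0.68 and 0.53. The calls of Rrp1b, Noc2l and Noc3l were lost with equal sums, and that of Rrp1b also without any sample but ESC replicate 3 (adjusted p 0.0622 to 0.0791).

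**Figure D3:**
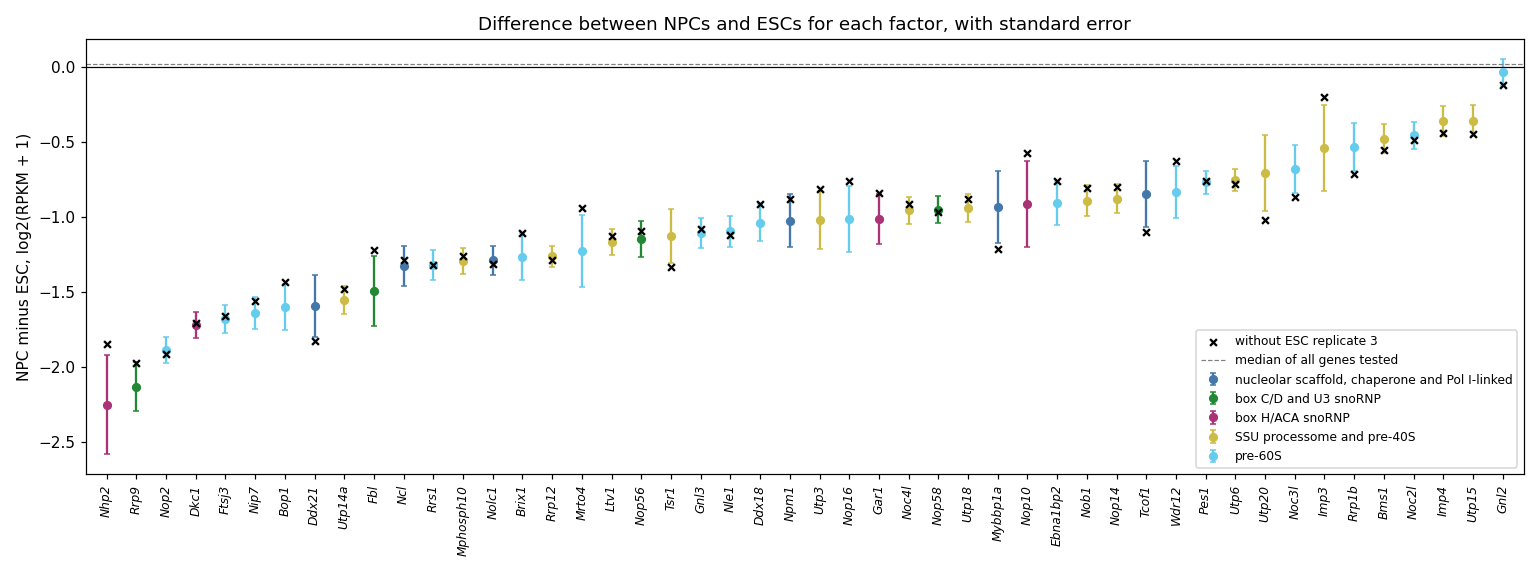
Difference NPC minus ESC on the log2(RPKM + 1) scale (vertical) for the 48 factors, sorted by size and colored by role, with bars for the standard error from limma and crosses for the difference without ESC replicate 3. All 48 points lie below 0, from -2.25 for Nhp2 to -0.03 for Gnl2; with equal sums Gnl2 and Imp4 lie above 0 (0.26 and 0.03), and with quantile normalization Imp3 lies at 0.00.

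Other genes of the pathway came from lists of known factors outside the 48, and their counts stand against 33.3% of all genes called lower and 36.9% called higher. Among other SSU and pre-40S factors 31 of 36 tested were called lower and 0 higher (median -0.77), and among other pre-60S factors 29 of 36 were lower and 0 higher (median -0.75). Of 8 snoRNP assembly factors 7 were lower (median -0.57), of 14 genes of the exosome and rRNA trimming 8 (median -0.58), and of 14 genes of the RNA polymerase I machinery 11 (median -0.71), with 0 higher by limma in each of these lists, also at an unadjusted p under 0.05. With equal sums the lower calls were 20 of 36 (2 higher), 21 of 36 (1 higher), 4 of 8, 6 of 14 and 9 of 14 in the same order, against 20.6% lower and 46.7% higher of all genes on that scale. Pno1, a pre-40S factor, had the largest fall of its list and was at 12.8, 12.3 and 15.9 RPKM in ESCs and at 3.20, 3.46 and 3.11 RPKM in NPCs. Its groups did not overlap. It fell by 1.78 (SE 0.11, limma adjusted p = 1.67e-05). The genes with the largest fall in the other lists were Ppan (pre-60S), at 51.2, 54.3 and 79.3 RPKM in ESCs and 15.8, 20.97 and 19.9 RPKM in NPCs, and Znhit3 (snoRNP assembly), at 4.13, 3.88 and 5.82 RPKM in ESCs and 2.34, 2.42 and 2.41 RPKM in NPCs. Mphosph6 (exosome) was at 6.94, 6.05 and 10.9 RPKM in ESCs and 2.49, 2.56 and 2.49 RPKM in NPCs, and Cd3eap (polymerase I) at 16.7, 15.9 and 29.4 RPKM in ESCs and 8.71, 7.93 and 7.47 RPKM in NPCs. All 4 had every ESC sample above every NPC sample, with ESC replicate 3 highest. Their log2 differences were -1.64, -0.71, -1.31 and -1.21 (limma adjusted p = 0.00043, 0.00351, 0.000997 and 0.00364). Without ESC replicate 3 the first 3 kept their rank, while Cd3eap (-0.94) did not, with Rrn3 (-1.33) falling most in its list.

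MYC factors are known activators of many ribosome biogenesis genes. Myc was at 1.31, 1.49 and 1.49 RPKM in ESCs and at 5.19, 6.15 and 5.66 RPKM in NPCs. It was higher in all NPC samples, the opposite direction to the 46 factors called lower. Myc rose by 1.45 (SE 0.08, limma adjusted p = 9.98e-06). Mycn, the most abundant gene of the MYC network list, was at 24.7, 26.4 and 21.8 RPKM in ESCs and at 23.5, 28.6 and 28.97 RPKM in NPCs. These groups overlapped, and Mycn was not called (0.15, SE 0.13, limma adjusted p = 0.342), but was called higher with equal sums (0.56, adjusted p = 0.0391) and quantile normalization (0.48, adjusted p = 0.0293). Of the 10 tested genes of the list 4 were called higher and 2 lower (median 0.30), against 36.9% and 33.3% of all genes. With equal sums 6 were higher and 1 lower, against 46.7% and 20.6%. The repressor Mxd4 was at 0.110, 0.159 and 0.115 RPKM in ESCs and at 5.12, 4.81 and 4.57 RPKM in NPCs, and Mlx, a partner of related factors, at 8.29, 8.03 and 7.66 RPKM in ESCs and at 3.95, 3.97 and 4.35 RPKM in NPCs. Neither gene had overlapping groups. They had the largest rise and the largest fall of the list, at 2.37 (limma adjusted p = 2.61e-07) and -0.82 (limma adjusted p = 0.00012). Mxd4 was under 1 RPKM in every ESC sample, so it passed the filter only through its NPC values. Without a filter 5 of 11 genes of the list were called higher and 2 lower, against 39.5% and 22.9% of all genes. Protein levels and MYC binding were not measured.

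Of 20 cell division genes 15 were called lower and 2 higher (median -0.65), against 33.3% and 36.9% of all genes, and with equal sums 8 were lower and 3 higher, against 20.6% and 46.7%. The largest fall was that of Mcm5, a subunit of the replicative helicase, at 33.6, 37.3 and 33.6 RPKM in ESCs and at 13.1, 13.0 and 13.0 RPKM in NPCs. The largest rise was that of Mki67, at 15.1, 13.9 and 5.67 RPKM in ESCs and at 25.1, 26.7 and 24.4 RPKM in NPCs. All NPC samples were below all ESC samples for Mcm5 and above them for Mki67. The log2 difference was -1.35 (SE 0.09, limma adjusted p = 2.15e-05) for Mcm5 and 1.18 (SE 0.33, limma adjusted p = 0.0182) for Mki67, the latter 0.77 without ESC replicate 3. The limma call of Mki67 was lost when any NPC sample was left out (adjusted p 0.0508 to 0.0595). The part of cell division in the differences of the factors was not tested.

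All 13 ESC markers were called lower in NPCs, against 33.3% of all genes, and the filter likewise admits genes through their ESC values. With equal sums 12 of the 13 were called lower, against 20.6% of all genes. Pou5f1 was at 130.0, 136 and 202 RPKM in ESCs and at 0.0558, 0.0386 and 0.0651 RPKM in NPCs, Zfp42 at 39.3, 39.1 and 44.3 RPKM in ESCs and at 0.0195, 0.00616 and 0.0156 RPKM in NPCs, and Dppa5a, the most abundant, at 1307, 1294 and 3131 RPKM in ESCs and at 0.354, 0.130 and 0.110 RPKM in NPCs. Of 11 neural progenitor markers 7 were tested and 6 called higher, against 36.9% of all genes. Their sums were 41.7, 43.3 and 51.2 RPKM in ESCs and 89.0, 94.9 and 97.4 RPKM in NPCs, over all 11 listed. Pax6 was at 0.0134, 0.0167 and 0.00457 RPKM in ESCs and at 1.55, 1.42 and 1.67 RPKM in NPCs, and Vim, the most abundant of the list, at 35.3, 37.4 and 45.9 RPKM in ESCs and at 43.99, 43.96 and 48.8 RPKM in NPCs. The groups overlapped for Vim through ESC replicate 3, and it was not called (0.21, limma adjusted p = 0.204). Without that sample Vim was called higher (0.32, limma adjusted p = 0.00208), as it was with all samples at equal sums (0.63) or quantile normalized (0.69). Pax6, which defines the progenitors the protocol aims at, was thus present in all NPC samples at a low level, and Hes5 and Olig2 were listed at 0 in all ESC samples.

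Markers of mesenchyme and mesoderm, endothelium and blood, and endoderm summed to more in the NPC samples, and neuron markers to less. The neuron sum does not speak for most genes of its list. Without a filter 9 of 11 neuron markers were called higher and 2 lower, against 39.5% and 22.9% of all genes. A gene under 1 RPKM in all ESC samples passes the filter only through its NPC values. Counts of higher genes among these markers that were tested, and in part among neural progenitor markers, therefore follow from the filter, and the sums are over all listed genes. The counts of tested markers below stand against 36.9% of all genes called higher and 33.3% called lower. Without a filter 10 of 11 markers of mesenchyme and mesoderm, 6 of 9 of endothelium and blood, 7 of 8 of endoderm and 10 of 11 of neural progenitors were called higher. Lower calls in the same order were 1, 1, 1 and 0, against 39.5% higher and 22.9% lower of all genes. Of 11 markers of mesenchyme and mesoderm 9 were tested and called higher, all of them under 1 RPKM in every ESC sample, with sums of 1.27, 1.38 and 1.07 RPKM in ESCs and of 109.4, 118 and 113 RPKM in NPCs. Foxf1, the most abundant, and Lox were listed at 0 in all ESC samples, and Foxf1 was at 29.1, 27.3 and 23.8 RPKM in NPCs. Endothelial and blood markers (4 of 9 tested and called higher, each under 1 RPKM in every ESC sample, led by Cd93 at 9.40, 8.28 and 7.97 RPKM in NPCs, with Hbb-y and Hba-x listed at 0 in all ESC samples and Ptprc in all NPC samples) summed to 1.45, 1.41 and 1.06 RPKM in ESCs and to 23.9, 26.2 and 26.4 RPKM in NPCs. Endoderm markers (6 of 8 tested, 5 higher, each under 1 RPKM in every ESC sample, and 1 lower, led by Gata6 at 6.30, 6.93 and 6.82 RPKM in NPCs, with Afp and Ttr listed at 0 in all ESC samples) summed to 2.68, 2.77 and 3.40 RPKM in ESCs and to 19.4, 21.04 and 20.1 RPKM in NPCs. Neuron markers (3 of 11 tested, 1 higher and 2 lower, led by Tubb3 at 6.42, 7.57 and 7.86 RPKM in ESCs and 4.47, 3.56 and 4.41 RPKM in NPCs, with Dcx listed at 0 in all ESC samples) summed to 13.2, 14.5 and 16.7 RPKM in ESCs and to 11.7, 9.81 and 11.1 RPKM in NPCs. Of the 3 tested neuron markers 1 was lower and 1 higher with equal sums, against 20.6% and 46.7% of all genes. With quantile normalization 2 were lower and 0 higher, against 38.2% and 34.1%. Other cells in the NPC samples and expression of these markers in the progenitors themselves cannot be told apart, and their part in the differences was not tested.

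The positions of the factors were set against nucleolus-associated domains (NADs), the regions that Nucleolar-DamID found in contact with the nucleolus. The NADs come from other samples than the RNAseq, ESCs and NPCs with an inducible transgene for H2B-Dam or H2B-Dam-NoLS, induced over 15 h by Shield1 (1 µM) together with doxycycline (100 ng/ml). The 48 genes lie on 18 chromosomes of GRCm38. In ESCs 11 of 48 overlapped a NAD (22.9%, exact Clopper-Pearson 95% interval 12.0 to 37.3), against 27.1% of 21432 genes with a position and 23.1% of the 7754 tested genes among them. In NPCs 12 of 48 did (25.0%, interval 13.6 to 39.6), against 21.6% and 20.1%. Both intervals span the share of all genes, and each list is 1 set of regions without replicate values.

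Nop58, Nop10, Utp18, Utp20, Nop14, Tsr1, Wdr12 and Gnl3 overlapped NADs in both cell types, Ncl, Bms1 and Brix1 in ESCs alone, and Ltv1, Nob1, Rrs1 and Nip7 in NPCs alone. Nop58 and Wdr12 share a NAD, and so do Nob1 and Nip7 in NPCs. Ncl, at chr1:86344719-86359400 on the minus strand, lay in an ESC NAD of 4499.8 kb (chr1:85800335-90300086), and Gnl3, at chr14:31012433-31019152 on the minus strand, lay in an ESC NAD of 100.3 kb (chr14:30999980-31100299) with a score of 0.131 and in a longer one in NPCs (chr14:30700807-31100299, score 0.0400). Median log2 differences were -0.92 for the 8 factors in NADs of both cell types, -1.26 for the 3 in ESCs alone, -1.24 for the 4 in NPCs alone and -1.02 for the 33 in none. Without ESC replicate 3 these medians were -0.92, -1.10, -1.22 and -0.94. All 15 factors in a NAD of either cell type and 31 of the 33 in none were called lower, and a relation of expression with NADs was not tested.

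Several of the factors also carry snoRNA genes in their introns. In the GENCODE annotation, 6 of the 48 (12.5%) held an snoRNA gene within the gene body on the same strand, against 2.07% of 7748 tested protein-coding genes. They were Nop56 with 5, Nop58 with 4, Ncl and Gnl3 with 3 each, Tsr1 with 2 and Dkc1 with 1. All 6 hosts were called lower, with a median of -1.13, against -1.01 for the other 42. Without ESC replicate 3 the medians were -1.19 and -0.91. The snoRNAs lack polyA tails and were not measured here. Exons of 17 of the 48 overlap exons of a gene on the opposite strand, such as Rrp9 and Parp3, Nhp2 and Rmnd5b, or Bop1 and Mroh1. The use of strand in the counting is not clear, so reads of such pairs cannot be told apart. The 31 factors without such an overlap had a median of -1.02 (-0.94 without ESC replicate 3), with 30 called lower. Reads shared with processed pseudogenes, which are known for Npm1, cannot be told apart either.

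Promoters of the factors were searched for short motifs. RefSeq promoters on GRCm38.p6, from 250 bases before to 50 after the transcription start, were matched by symbol for 40 of the 48. The E-box CACGTG, a palindrome that MYC factors among others can bind, was in 9 of 40 (22.5%, exact Clopper-Pearson 95% interval 10.8 to 38.5), against 8.09% of all 27025 genes with a promoter and 12.5% of the 6169 tested genes among them. The ETS motif CCGGAAG, on both strands, was in 15 of 40 (37.5%, interval 22.7 to 54.2), against 9.93% and 23.1%. The ZBTB33 motif TCTCGCG was in 5 of 40 (12.5%, interval 4.19 to 26.8), against 2.92% and 7.15%. CCAAT was in 42.5% (41.1% of all and 43.9% of tested genes), the NRF1 motif GCATGCG in 10.0% (4.01% and 8.22%), the YY1 motif AAGATGG in 7.5% (7.28% and 9.27%) and TATAAA in 5.0% (15.7% and 7.76%), all on both strands. The intervals of the E-box, ETS and ZBTB33 motifs span the shares of tested genes but lie above those of all genes with a promoter. A match is a description of the letters and not of binding. The 9 factors with an E-box had a median log2 difference of -0.94 and the 31 without one -1.02, and the order was reversed without ESC replicate 3 (-1.12 and -0.91).

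The 30 bases around the E-box of these 9 genes are the sequence around the motif these factors share. They are taken from RefSeq (GRCm38.p6), on the strand of the gene from 5′ to 3′, with the E-box in capitals. The positions are chr6:125131811-125131840 (plus strand) for Nop2, chr11:3963965-3963994 (plus) for Pes1, chr11:72441347-72441376 (plus) for Mybbp1a, chr11:74898092-74898121 (plus) for Tsr1, chr11:82908355-82908384 (minus) for Nle1, chr11:93885769-93885798 (minus) for Utp18, chr10:13193092-13193121 (minus) for Ltv1, chr10:88826765-88826794 (minus) for Utp20 and chr1:34439696-34439725 (plus) for Imp4. The first base of the E-box lies before the transcription start in Imp4 (-121), Nop2 (-60) and Utp18 (-20) and after it in the other 6.
Nop2: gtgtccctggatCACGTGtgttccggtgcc
Pes1: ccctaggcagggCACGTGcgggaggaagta
Mybbp1a: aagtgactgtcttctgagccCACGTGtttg
Tsr1: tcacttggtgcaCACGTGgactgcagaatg
Nle1: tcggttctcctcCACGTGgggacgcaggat
Utp18: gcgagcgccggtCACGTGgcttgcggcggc
Ltv1: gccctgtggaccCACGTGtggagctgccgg
Utp20: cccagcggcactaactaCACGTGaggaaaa
Imp4: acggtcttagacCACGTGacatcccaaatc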

How the data were processed

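RPKM values were used as deposited: per the authors, reads were cleared of rRNA, trimmed and aligned to mm10 with STAR, and an exon-coverage pipeline of their own made RPKM per gene. The submitters' notes name Bowtie2 2.3.4.3, Subread 1.4.6-p4 and deepTools 3.2.1. Gene annotation, use of strand and treatment of reads with several positions are not given in the sources used, and the labels and the paper name different library kits. The NAD score was also used as deposited: the authors compared H2B-Dam-NoLS with H2B-Dam and kept domains common to both experiments, with 1 score per domain.

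The 22064 table lines hold 21909 symbols. For each of the 153 symbols on several lines the line with the highest mean was kept, none of them a factor. Genes with at least 1 RPKM in at least 3 of the 6 samples were tested (7835) on log2(RPKM + 1) with limma-trend, NPC minus ESC, and p-values were adjusted by Benjamini-Hochberg over all genes tested. No further scaling was applied in the values given without a setting. An exact test of 3 against 3 samples cannot give a p below 0.1. Gene bodies from GENCODE M21 were set against NADs by any overlap, and promoters of RefSeq GRCm38.p6 were searched on both strands. Intervals of shares are Clopper-Pearson. The fit ran in R 4.3.3 with limma 3.58.1. Tables were made in Python 3.11.15 with pandas 2.3.3 and numpy 2.4.6, intervals with scipy 1.17.1, and figures with matplotlib 3.10.9.

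The factors, role groups and gene lists were chosen by known roles, with earlier results of these data known. By the rule for named genes, all 48 factors are accounted for, and full values are given for Ncl, Npm1 and Fbl, for the most abundant factor of each role group, for its called factor with the largest rise and up to 2 with the largest fall, and for any called factor against the majority. In other lists it is the called gene that rose most, the one that fell most, Myc and Mycn, and for markers Pou5f1, Zfp42, Pax6 and the most abundant of each list. Other genes given sample values (Imp3, Utp20, Gnl2, Gnl3, Gar1, Bop1, Wdr12) were chosen after their values were seen.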

Additional observations from a re-analysis of the deposited data

How the results depend on the processing

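The main values rest on log2(RPKM + 1), genes with at least 1 RPKM in at least 3 samples, no scaling and all 6 samples. Pseudocounts of 0.1 and 0.5 and median-ratio scaling left the 46 lower calls among the 48 factors in place. No factor was called higher in any setting.

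Counts over all genes depend on the filter and on scaling. Without a filter 4209 genes were called lower and 7245 higher, and with a mean of at least 5 RPKM 1205 lower and 595 higher, against 2606 and 2894 in the main setting. With equal sums 1612 were lower. A filter changes the genes counted by construction, and equal sums divide out the higher RPKM sums of the ESC samples.

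With a mean of at least 5 RPKM fewer genes of each list were tested, and 45.2% of 2664 genes were called lower and 22.3% higher. Of the 48 factors 5 of 6 tested in the SSU and pre-40S group were lower, and of the other lists 13 of 14 SSU and pre-40S, 18 of 22 pre-60S, 1 of 2 snoRNP assembly, 5 of 6 exosome, 6 of 6 RNA polymerase I and 1 of 4 MYC network genes. Of the MYC network 1 of 4 was higher. With equal sums, where 20.6% of all genes were lower and 46.7% higher, 20 other SSU and pre-40S, 4 snoRNP assembly, 1 MYC network and 8 cell division genes were lower, and 2 other SSU and pre-40S genes and 1 other pre-60S gene were higher. With quantile normalization 1 other pre-60S gene was higher.

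The median log2 difference of the factors was -1.02, -0.63 with equal sums and -0.89 with quantile normalization. Equal sums left 37 of 46 calls (lost: Tcof1, Mybbp1a, Utp15, Utp20, Imp4, Bms1, Rrp1b, Noc2l, Noc3l) and quantile normalization 41 (lost: Npm1, Mybbp1a, Nop10, Imp4, Noc2l). Utp20 was lost without a filter and without the trend. The sign was reversed for Imp3 with quantile normalization (0.00224, limma adjusted p = 0.987), and with equal sums for Imp4 (0.0284, limma adjusted p = 0.896) and Gnl2 (0.26, limma adjusted p = 0.176). The cause was not tested.

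Leaving out each sample in turn gave 41 to 48 factors lower, a median of -1.09 to -0.99, and over all genes 2093 to 3447 lower and 2517 to 3437 higher. By role group 5 to 6 scaffold, 4 box C/D, 3 to 4 box H/ACA, 12 to 16 SSU and 16 to 18 pre-60S factors were lower. The lists gave 0 to 1 other pre-60S, 0 to 1 exosome and 0 to 2 cell division genes higher. Calls lost without a sample other than ESC replicate 3 were those of Utp20 (any of the 5) and Rrp1b (any of the 5), of Utp15 and Imp4 (ESC replicates 1 or 2, NPC replicates 2 or 3), of Nop10 (any NPC replicate) and of Tcof1 (NPC replicate 1). The difference of Gnl2 ran from -0.12 (limma adjusted p = 0.0263, called) without ESC replicate 3 to 0.0270 (limma adjusted p = 0.816) without ESC replicate 1, and Imp3 was called without ESC replicate 3 (-0.20, limma adjusted p = 0.00854).

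Whether replicate numbers pair the cell types is not stated. Deviations of the samples with the same number correlated at r = 0.114, -0.0827 and 0.0323 across genes. Samples with different numbers correlated at -0.0895 to 0.0893. Such correlations across genes cannot settle the pairing. With the replicate number as a block, 2460 genes were lower and 2754 higher, all 46 factors stayed lower, and 1 cell division gene was higher.

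Of the factors 25.0% overlapped NADs of NPCs, against 21.6% of all genes, and 10.4% against 12.3% overlapped those at or above the median score, with an interval of 3.47 to 22.7. In ESCs the shares were 22.9% against 27.1%, and 20.8% (interval 10.5 to 35.0) against 16.5% with that cut. All intervals span the share of all genes. The stricter cut leaves fewer NADs by construction.

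The factors were measured as polyA RNA, in a single cell line, with 3 samples per group that are not stated to be separate cultures. Protein, rRNA synthesis and ribosome number were not measured. The part of other cells and of cell division in the differences was not tested. Reads shared with pseudogenes or with genes on the opposite strand cannot be told apart, and neither can a batch that goes with the cell type. ESC replicate 3 differs by annotated exon length, and for Imp3, Nop10, Utp20 and Gnl2 this sample decides size or call. The size of other factors also moved without it, such as Nhp2 (from -2.25 to -1.85) and Mybbp1a (from -0.93 to -1.21).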
